A study of Mus musculus with 4 samples.

Results

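The proteasome is the protease complex that degrades ubiquitin-tagged proteins, and 31 of its subunit genes were followed here in ribosome footprints. The members were chosen by gene ID, from the Ensembl mouse IDs given for Psma1 to Psma7, Psmb1 to Psmb7, Psmc1 to Psmc6 and 11 Psmd genes, and all 31 were found among the 53465 IDs of the count table. They comprise 14 genes of the 20S core particle (Psma and Psmb) and 17 of the 19S regulatory particle (Psmc and Psmd). Every member passed the filter on low counts, so none is missing from the values below. The count table holds no gene symbols, so each symbol rests on the ID pairing that came with the choice of members.

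The footprints came from MLE-12, a mouse lung epithelial line transformed with the SV40 large T antigen that serves as a stand-in for alveolar type 2 cells. Control cells gave 2 libraries (replicates 1 and 2) and cells given 5 µM 1-nitropyrene, a nitrated aromatic compound of diesel exhaust, gave 2 libraries (replicates 2 and 3), with an exposure of 12 h. All 4 libraries were from the same line, which stands for a single cell population, and all cells were washed with cycloheximide to hold ribosomes in place. Ribosome profiling counts the RNA fragments that ribosomes protect, so a level reflects both the amount of an mRNA and its ribosome occupancy. These cannot be told apart without RNA libraries of the same cells. Levels are relative to the rest of a library, so neither the number of cells nor the total RNA per cell can be read from them. The labels do not say whether the replicates were grown as independent cultures, so the spread between libraries may be technical. The p-values and intervals use that spread pooled over genes of like abundance. A gene's own spread between replicates gets no weight in them. The study asks how 1-nitropyrene acts on translation in these cells, in particular of a ubiquitin ligase subunit, and the proteasome lies downstream of ubiquitin ligases. The markers that define alveolar type 2 cells were not analysed here, because the IDs could not be tied to symbols.

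The core particle is a barrel of stacked rings. The outer alpha rings gate the entrance and carry the contact with the regulatory particle, and the inner beta rings hold the proteolytic sites, which belong to Psmb6 (caspase-like), Psmb7 (trypsin-like) and Psmb5 (chymotrypsin-like). The regulatory particle has a base, with a ring of ATPases (Psmc) that unfold substrates and large scaffold subunits (Psmd1 and Psmd2) and a ubiquitin receptor (Psmd4), and a lid, whose Psmd14 removes ubiquitin chains. The subunits stand in fixed proportions in the assembled particle, and mammalian cells are known to raise many of the genes together when the proteasome is inhibited, through the transcription factor NFE2L1 acting at antioxidant response elements.

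The libraries held 1261372 and 1136145 counts (controls 1 and 2) and 1243186 and 1357034 counts (1-nitropyrene 2 and 3). After scaling by the trimmed mean of M values (TMM), levels are given as CPM (counts per 1e6 of scaled library), in which 1 count was worth between 0.761 and 0.860 CPM and a count of 0 would allow up to 2.28 to 2.58 CPM. The members had mean counts from 25.8 (Psmb5) to 1167 (Psmd12), with a median of 262.5, and 27 of the 31 were among the 1933 most abundant of the 7719 genes tested (mean count of at least 92). No level is compared between genes here, since levels would have to be set per coding length.

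Proteasome genes are known for shared control at their promoters, and the sequences there are given first. RefSeq windows of 300 bases (250 before to 50 after an annotated start, build GRCm38.p6) were matched by symbol for 25 of the 31 members. The core letters of the antioxidant response element, TGACNNNGC on either strand, were in the window of 4 of these 25 genes (16.0%), against 14.0% of all 27025 genes with a window; a gene was counted once if any of its windows held the letters. These 4 matches are shown with the core in capitals on the gene's strand, each with up to 10 flanking bases, because the 4 genes include a pair of catalytic subunits with log2 fold changes of opposite sign.
Psmb5, chr14:54618024-54618052, minus strand: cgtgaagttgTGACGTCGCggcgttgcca
Psmb6, chr11:70525338-70525366, plus strand: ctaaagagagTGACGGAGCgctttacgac
Psmc6, chr14:45329587-45329615, plus strand: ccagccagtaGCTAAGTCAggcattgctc
Psmd12, chr11:107479278-107479299, plus strand: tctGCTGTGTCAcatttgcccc

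The core began 47 bases before the window's annotated start of Psmb5, 9 before that of Psmb6, 227 before that of Psmc6 and 247 before that of Psmd12. The start used for Psmb6 lies inside the RefSeq span of the gene, which begins at chr11:70525324, so its core lies within that span. In Psmc6 and Psmd12 the letters read as the core on the opposite strand. Of these 4 genes, Psmb5 rose and Psmc6 fell, while Psmb6 and Psmd12 did not reach the threshold, with a negative and a positive log2 fold change; the values follow below. Both signs occurred among the 4 genes, which were displayed because of a pair with opposite signs. Whether the core had a part in the changes was not tested. A match is a run of letters and not a bound site.

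The GC box GGGCGG was in the windows of 15 of the 25 genes (60.0%, against 38.2% of all genes), the letters CCGGAAG, an ETS-type core, in 10 (40.0%, against 9.93%) and CCAAT in 10 (40.0%, against 41.1%), each counted on either strand. The genes compared with include noncoding ones. Of the other motifs searched, TATAAA, the TATA box, was in the windows of 3 members (12.0%, against 15.7%) and AAGATGGC, a YY1-type core, in 3 (12.0%, against 3.19%). TGACTCAGC, which is a form of the antioxidant core, was in 0 members (against 0.503%) and TGACGTCA, a cyclic AMP response element, in 0 (against 2.03%). These 8 motifs were all that were searched, with the results known, and CCGGAAG is singled out after its shares were seen, so the shares are descriptions with no test. The 150 bases before the annotated starts of Psma6 and Psmc4 are shown because these genes had the largest fall and the largest rise among the members, with any match to the antioxidant core, the CCAAT box, the GC box or the ETS-type core in capitals. Psma6 has a pair of annotated starts, and the counts cannot tell which is used.
Psma6, first start, chr12:55384072-55384221, plus strand: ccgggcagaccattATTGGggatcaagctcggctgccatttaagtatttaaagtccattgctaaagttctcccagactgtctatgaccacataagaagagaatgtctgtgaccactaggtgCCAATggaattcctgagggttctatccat
Psma6, second start, chr12:55398675-55398824, plus strand: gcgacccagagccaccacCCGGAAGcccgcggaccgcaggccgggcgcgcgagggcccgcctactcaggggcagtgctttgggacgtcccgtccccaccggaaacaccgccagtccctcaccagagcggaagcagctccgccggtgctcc
Psmc4, chr7:28050093-28050242, minus strand: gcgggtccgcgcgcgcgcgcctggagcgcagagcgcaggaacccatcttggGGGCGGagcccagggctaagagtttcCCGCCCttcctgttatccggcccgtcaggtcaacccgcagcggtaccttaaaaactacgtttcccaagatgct

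The capitals are CCAAT on either strand before the first start of Psma6, a CCGGAAG before the second, and GC boxes on either strand before Psmc4. A further CCGGAAG begins 2 bases before the second start of Psma6 and crosses it. Another, on the opposite strand, begins 17 bases after that start. Neither lies wholly in the bases shown, so neither is in capitals. None of these 4 motifs was thus shared by Psmc4 and Psma6 in the bases shown.

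Proteasome genes changed in both directions after 1-nitropyrene. Of the 31 members, 3 rose and 4 fell, while 24 did not reach the threshold (edgeR quasi-likelihood test, p adjusted over the whole table by Benjamini-Hochberg, threshold 0.05). Psmc4, Psmb5 and Psmd2 rose, and Psma6, Psmd11, Psma2 and Psmc6 fell. The 7 calls are 22.6% of the members, where 17.3% of all tested genes were called, 9.68% higher and 7.58% lower. The members are mostly abundant genes, which are called more often, and among the 1933 most abundant genes 36.4% were called (24.7% higher and 11.7% lower) against 6 of the 27 members among them (2 higher and 4 lower). The share called was thus not above the background of genes covered as deeply.

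The median log2 fold change of the members was -0.087, beside -0.0076 over all genes tested and 0.082 over the 1933 most abundant. It came to -0.036 without control replicate 2, -0.051 without 1-nitropyrene replicate 2 and -0.027 without 1-nitropyrene replicate 3. Negative values were found for 18 of the 31 members (58.1%), against 50.8% of all genes tested and 40.1% of the 1933 most abundant. These signs depend on the scaling: with total counts in place of TMM, which moved the median of all tested genes to -0.17, 26 of the 31 members were negative and their median was -0.25. The CPM of the groups did not overlap for 22 of 31 members, where 57.3% of all tested genes and 71.0% of the 1933 most abundant did not overlap. Of the 24 members that were not called, 21 had a 95% interval of the fold change that lay wholly within 1.5-fold in either direction. The other 3, Psma5, Psmb6 and Psmd8, had mean counts of 40.5, 72.8 and 46.0, and a change of 1.5-fold is inside their intervals. All these intervals rest on the spread pooled over genes.

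**Figure D1:**
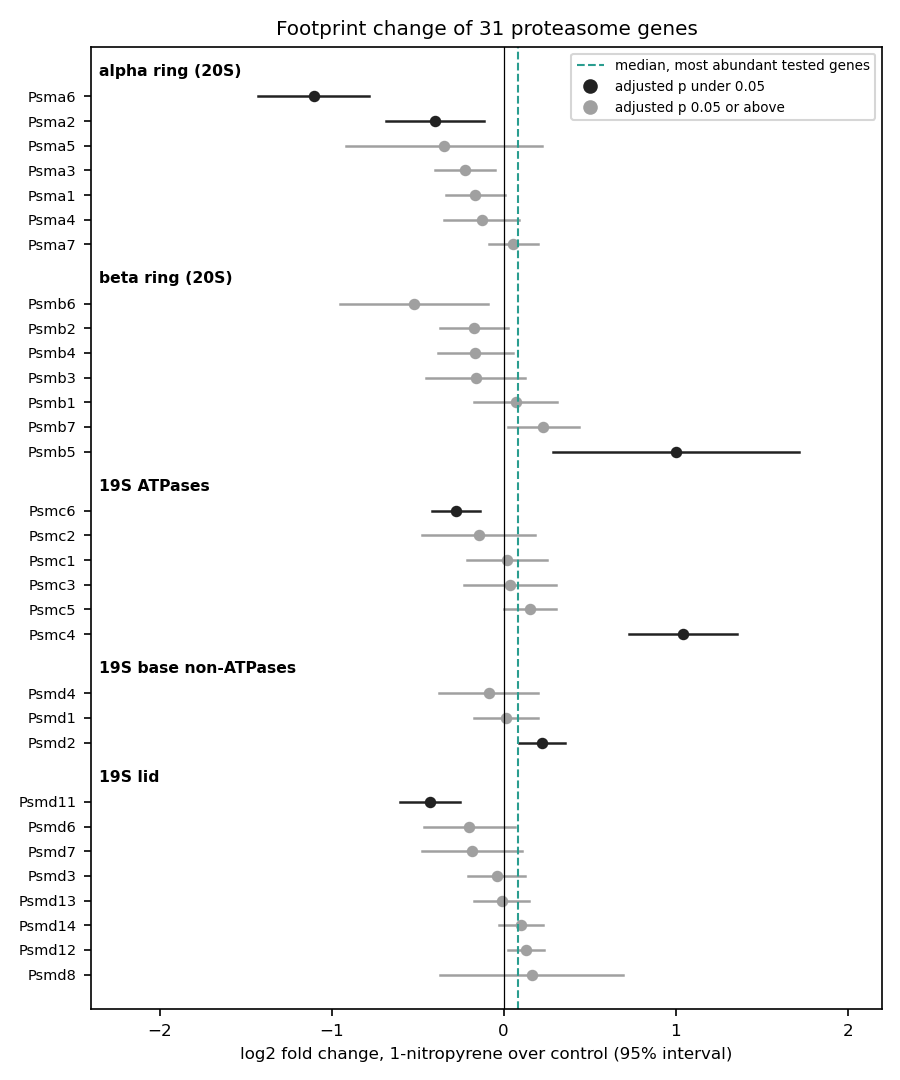
Log2 fold change of each of the 31 proteasome genes (1-nitropyrene over control, edgeR, points) with its 95% interval (lines), grouped by position in the particle; black marks an adjusted p under 0.05 and the dashed line the median of 0.082 over the 1933 most abundant tested genes. Most intervals cross 0, while Psma6 at -1.10 and Psmc4 at 1.04 stand at opposite ends.

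In the alpha ring, 2 of 7 genes fell, none rose and 5 were not called, with a median log2 fold change of -0.23. These calls are 28.6% of the ring, where 17.3% of all genes tested and 36.4% of the 1933 most abundant were called. Called lower were 7.58% of all genes tested and 11.7% of the 1933 most abundant. Psma6 (ENSMUSG00000021024), the α1 subunit, had 190 and 182 counts in controls and 76 and 92 after 1-nitropyrene. In CPM these were 145 and 154 against 65.4 and 72.9, so that both treated libraries lay far below both controls, with little spread in either group. Its level fell from 149 ± 6.39 to 69.1 ± 5.28 CPM (SD, n = 2 each), a log2 fold change of -1.10 (SE 0.16, edgeR adjusted p = 1.55e-09), lower than that of all but 3.95% of the genes tested. The gene spans chr12:55384222-55418459 (GRCm38.p6).

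Psma2, the α2 subunit next to Psma6 in the ring (ENSMUSG00000015671, chr13:14613242-14625673), had 161 and 135 CPM in controls and 115 and 110 after 1-nitropyrene. The groups did not overlap, but control replicate 1 stood well above control replicate 2. The log2 fold change was -0.40 (SE 0.15, edgeR adjusted p = 0.0403). The call was lost without control replicate 1 (adjusted p = 0.452), without 1-nitropyrene replicate 2 (adjusted p = 0.178), without 1-nitropyrene replicate 3 (adjusted p = 0.204), without a filter on low counts (adjusted p = 0.0811) and with the DESeq2 Wald test (adjusted p = 0.332).

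The other alpha subunits had smaller differences. Psma3 lay nearest the threshold among the genes not called, with 356 and 366 CPM in controls and 334 and 284 after 1-nitropyrene (log2 fold change -0.23, SE 0.089, edgeR adjusted p = 0.0601). Psma5, Psma1 and Psma4 had log2 fold changes of -0.35, -0.16 and -0.13, and Psma7, the most counted of the ring, 0.056. Psma7 was at 483 and 502 CPM in controls and 497 and 525 after 1-nitropyrene, so the groups overlapped, and its 95% interval ran from -0.087 to 0.20 on the log2 scale.

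Psma6 was also lower in both treated libraries as a share of the footprints of its own ring, a measure that needs no scaling between libraries. It took 8.30% (95% Wilson interval 7.24 to 9.50) and 8.50% (7.39 to 9.76) of the alpha ring counts in the control libraries. In the 1-nitropyrene libraries it took 4.20% (3.37 to 5.22) and 4.68% (3.83 to 5.70). The intervals, which cover counting error only, do not meet between the groups. Those of Psma2 do meet, with a share of 7.47% (6.43 to 8.66) in control replicate 2 and 7.40% (6.28 to 8.70) in 1-nitropyrene replicate 2.

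In the beta ring, 1 of 7 genes rose, none fell and 6 were not called, with a median log2 fold change of -0.16. The share called was 14.3%, against 17.3% of all genes tested and 36.4% of the 1933 most abundant. Of the 3 catalytic subunits, Psmb5 rose and Psmb6 and Psmb7 were not called. Psmb5, the chymotrypsin-like subunit (ENSMUSG00000022193, chr14:54614120-54617995), had only 24 and 11 counts in controls and 31 and 37 after 1-nitropyrene. Its level rose from 13.8 ± 6.35 to 28.0 ± 1.86 CPM (SD, n = 2 each; log2 fold change 1.00, SE 0.36, edgeR adjusted p = 0.0382). In CPM the controls were at 18.3 and 9.28 and the treated libraries at 26.7 and 29.3, so the groups did not overlap, but the controls differed from each other about as much as the higher control did from the lower treated library, and the 95% interval ran from 1.22- to 3.28-fold. The call was lost without control replicate 2 (log2 fold change 0.62, adjusted p = 0.397), without 1-nitropyrene replicate 2 (adjusted p = 0.131), without 1-nitropyrene replicate 3 (adjusted p = 0.159), with total-count scaling (adjusted p = 0.0844) and without a filter on low counts (adjusted p = 0.0589). RefSeq lists a microRNA gene, Mir686, within the span and a pseudogene, Psmb5-ps, elsewhere; whether their reads were counted with Psmb5 was not tested.

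Psmb6, the caspase-like subunit (chr11:70525324-70527858), had 94 and 80 counts in controls and 70 and 47 after 1-nitropyrene. In CPM these were 71.5 and 67.5 against 60.2 and 37.2, so that 1-nitropyrene replicate 3 lay far below its partner. The log2 fold change of -0.52 (SE 0.22) did not pass the test (edgeR adjusted p = 0.0833). Psmb7, the trypsin-like subunit (chr2:38588046-38643952), had 212 and 220 CPM in controls and 258 and 250 after 1-nitropyrene. The groups did not overlap, and the log2 fold change of 0.23 (SE 0.11) did not pass the test either (edgeR adjusted p = 0.119). RefSeq lists pseudogenes of both (Psmb6-ps, Psmb6-ps2, Psmb7-ps1 and Psmb7-ps2), whose part in the counts was not tested.

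The 4 beta subunits without a catalytic site had log2 fold changes between -0.17 and 0.070. Psmb2, Psmb4 and Psmb3 were at -0.17, -0.16 and -0.16, and Psmb1 at 0.070. Each of these 4 had a 95% interval within 1.5-fold.

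**Figure D2:**
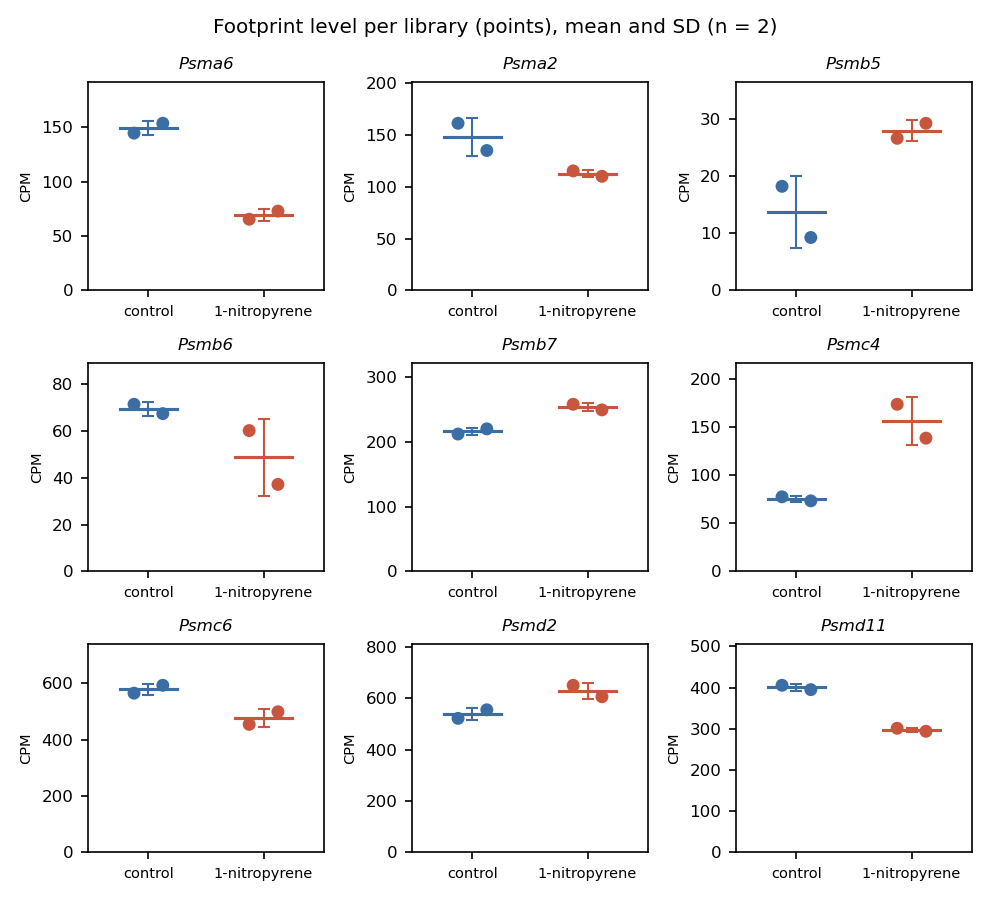
TMM-scaled footprint level in CPM in each library (points) with the mean and SD of each group (lines, n = 2) for the 7 genes that passed the test and for the catalytic subunits Psmb6 and Psmb7; every axis starts at 0. The 9 genes have groups that do not overlap, with the widest spread within a group, relative to its mean, in the controls of Psmb5 and the 1-nitropyrene libraries of Psmb6.

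In the ATPase ring of the regulatory particle, 1 of 6 genes rose, 1 fell and 4 were not called, with a median log2 fold change of 0.028. Called genes were 33.3% of the ring, against 17.3% of all genes tested and 36.4% of the 1933 most abundant. Psmc4 (ENSMUSG00000030603, chr7:28041702-28050092), which encodes the Rpt3 ATPase, had 102 and 87 counts in controls and 202 and 175 after 1-nitropyrene. In CPM these were 77.6 and 73.4 against 174 and 139, with the treated libraries further apart than the controls and both well above them. The level rose from 75.5 ± 2.96 to 156 ± 24.9 CPM (SD, n = 2 each), a 2.06-fold increase (log2 fold change 1.04, SE 0.16, edgeR adjusted p = 4.05e-09), and 96.9% of the tested genes had a lower value. The RefSeq table lists no overlapping gene for Psmc4.

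Psmc6 (ENSMUSG00000021832, chr14:45329823-45349074), which encodes the Rpt4 ATPase and had the most counts of the ring, had 565 and 593 CPM in controls and 454 and 499 after 1-nitropyrene. The groups did not overlap, and the log2 fold change was -0.28 (SE 0.071, edgeR adjusted p = 0.0014). The call was lost without control replicate 2 (adjusted p = 0.0792), without 1-nitropyrene replicate 2 (adjusted p = 0.170) and with the DESeq2 Wald test (adjusted p = 0.132). Psmc5, Psmc3, Psmc1 and Psmc2 had log2 fold changes of 0.15, 0.036, 0.020 and -0.14, each with a 95% interval within 1.5-fold.

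The ATPases are known to assemble in pairs, Psmc4 with Psmc5, Psmc6 with Psmc3 and Psmc2 with Psmc1. The count ratio of Psmc4 to Psmc5 was 0.195 and 0.167 in controls and 0.359 and 0.310 after 1-nitropyrene. The ratio in treated cells was thus 1.85 times the control ratio, with no overlap. The ratio of Psmc6 to Psmc3 was 3.95 and 4.11 against 3.03 and 3.44, or 0.803 of the control ratio. The ratio of Psmc2 to Psmc1 was 0.462 and 0.670 against 0.538 and 0.449, and its groups overlapped. These are ratios of counts not set per length, so only their change between groups can be read, and they were chosen after the values of Psmc4 and Psmc6 were seen.

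As a share of all ATPase counts, Psmc4 took 5.21% (95% Wilson interval 4.31 to 6.28) and 4.79% (3.90 to 5.87) in the control libraries. In the 1-nitropyrene libraries it took 11.2% (9.81 to 12.7) and 9.17% (7.96 to 10.6). Psmc6 took 37.9% and 38.7% of the ATPase counts in controls and 29.2% and 33.0% after 1-nitropyrene, with no overlap between groups.

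**Figure D3:**
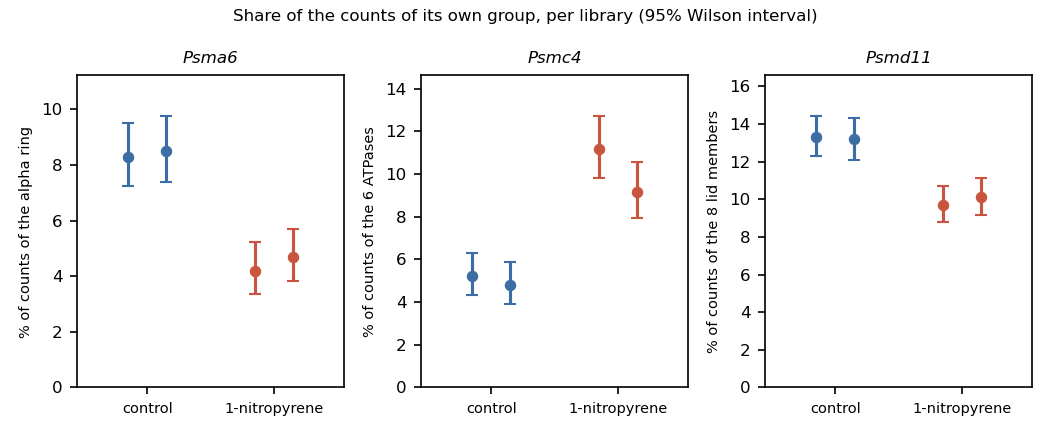
Counts of Psma6, Psmc4 and Psmd11 as a percentage of the summed counts of the 7 alpha ring genes, the 6 ATPase genes and the 8 lid genes, in each library (points) with 95% Wilson intervals (bars, counting error only). In each panel the intervals of control and 1-nitropyrene libraries do not meet. Intervals did meet for Psma2 in the alpha ring, Psmb5 among the catalytic subunits and Psmd2 among the other base subunits, which are not shown.

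Among the base subunits that are not ATPases, Psmd2 rose and Psmd1 and Psmd4 did not pass the test. Psmd2 (ENSMUSG00000006998, chr16:20651122-20663414), the Rpn1 scaffold that docks ubiquitin-like shuttle factors, had 522 and 555 CPM in controls and 651 and 606 after 1-nitropyrene. The groups did not overlap, and the increase was 1.17-fold (log2 fold change 0.22, SE 0.068, edgeR adjusted p = 0.0097). The call was lost without control replicate 1 (adjusted p = 0.203), without 1-nitropyrene replicate 2 (adjusted p = 0.188), with total-count scaling (adjusted p = 0.563) and with the DESeq2 Wald test (adjusted p = 0.174). Psmd1, the other large scaffold, had a log2 fold change of 0.013 and the ubiquitin receptor Psmd4 one of -0.087.

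In the lid, 1 of 8 genes fell, none rose and 7 were not called, with a median log2 fold change of -0.026. This was 12.5% called, against 17.3% of all genes tested and 36.4% of the 1933 most abundant. Psmd11 (ENSMUSG00000017428, chr11:80428615-80473248), the Rpn6 subunit that clamps the lid to the ATPases and the alpha ring, had 533 and 468 counts in controls and 350 and 371 after 1-nitropyrene. In CPM these were 405 and 395 against 301 and 294, with little spread in either group. The level fell from 400.1 ± 7.47 to 298 ± 5.17 CPM (SD, n = 2 each; log2 fold change -0.43, SE 0.088, edgeR adjusted p = 2.99e-05). Its share of the lid counts was 13.3% and 13.2% in controls and 9.72% and 10.1% after 1-nitropyrene.

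Psmd12, the most counted member, lay just outside the threshold, with 909 and 903 CPM in controls and 1047 and 940 after 1-nitropyrene (log2 fold change 0.13, SE 0.053, edgeR adjusted p = 0.0685). Without 1-nitropyrene replicate 3 it passed (log2 fold change 0.21, adjusted p = 0.0167). Psmd14, the deubiquitinase of the lid, had 632 and 568 CPM against 682 and 609, and its groups overlapped (log2 fold change 0.10, 95% interval -0.026 to 0.23). Of the structural subunits of the lid, Psmd13 and Psmd3 were at -0.010 and -0.041, Psmd6 and Psmd7 at -0.20 and -0.18, and Psmd8, with few counts, at 0.16 (95% interval -0.37 to 0.70).

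The core and regulatory particles were then set against each other. In the 20S set, 1 of 14 genes rose and 2 fell, and in the 19S set 2 of 17 rose and 2 fell. Among all genes tested 9.68% were called higher and 7.58% lower, and among the 1933 most abundant 24.7% and 11.7%. The share with a negative log2 fold change was 50.8% of all genes tested and 40.1% of the 1933 most abundant. The median log2 fold change was -0.16 over the 20S genes, of which 10 of 14 were negative, and 0.013 over the 19S genes, of which 8 of 17 were negative. Both medians lay below the 0.082 of the 1933 most abundant tested genes. With total-count scaling, which moved the median of all tested genes from -0.0076 to -0.17, the medians were -0.33 and -0.15, so the sign of the 19S median depends on the scaling. Without control replicate 1 the 19S median was -0.019, and with any other library left out it was above 0.

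The ratio of summed 20S to summed 19S counts needs no scaling. It was 0.517 and 0.538 in controls and 0.470 and 0.480 after 1-nitropyrene. Both treated libraries were below both controls, and the mean ratio in treated cells, 0.475 ± 0.0071, was 0.900 of that in control cells, 0.527 ± 0.015 (SD, n = 2 each). The log2 difference of -0.15 came to -0.093 when Psma6 and Psmc4 were left out of the sums. Summed CPM of the alpha ring was 1741 and 1806 in controls and 1558 and 1558 after 1-nitropyrene, with no overlap. The beta ring (1098 and 1140 against 1125 and 1052), the ATPases (1489 and 1533 against 1555 and 1511) and the lid (3042 and 2995 against 3099 and 2907) overlapped between groups. The 3 base subunits without ATPase activity were at 964 and 947 CPM in controls and 1058 and 1023 after 1-nitropyrene, and Psmd2 made up most of their counts in every library, from 54.1% to 61.5%. All 31 members together came to 8335 and 8420 CPM in controls and 8396 and 8051 after 1-nitropyrene, and these groups overlapped. Without TMM, as a share of all counts, the members took 0.869% and 0.878% in controls and 0.785% and 0.749% after 1-nitropyrene, with no overlap. As shares of all counts the beta ring (0.114% and 0.119% against 0.105% and 0.0979%), the ATPases (0.155% and 0.160% against 0.145% and 0.141%) and the lid (0.317% and 0.312% against 0.290% and 0.270%) were lower after 1-nitropyrene with no overlap either, while the 3 other base subunits overlapped (0.100% and 0.0988% against 0.0989% and 0.0951%). Which of these sums separate the groups thus depends on the scaling. The 2 IDs with the most counts held 31.4% of all counts, and the mean TMM factor was 1.06 in controls and 0.944 after 1-nitropyrene. The cause of this difference between groups was not tested.

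**Figure D4:**
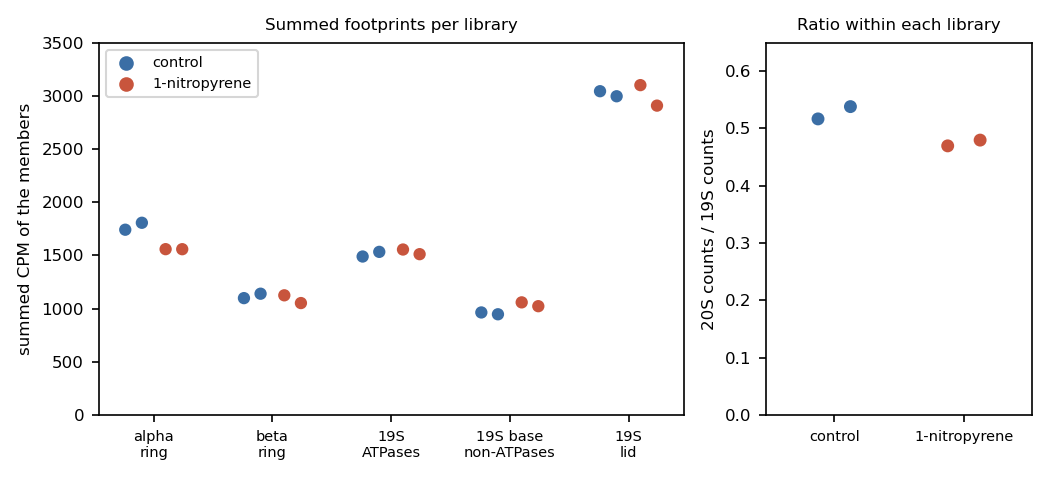
Left, summed footprint level in CPM of the genes of each ring or subcomplex in each library (points); right, counts of the 14 core (20S) genes divided by those of the 17 regulatory (19S) genes in each library. With TMM scaling the alpha ring sums, and in any scaling the ratio, are lower in both 1-nitropyrene libraries than in both controls, while the TMM-scaled beta ring, ATPase and lid sums overlap, although as shares of all counts they do not.

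The calls differed in how they held under other settings. Psma6, Psmc4 and Psmd11 kept direction and call in all 11 alternatives. Among these is the DESeq2 Wald test, which called no other member. It gave an adjusted p for 28 members and called 11.2% of all genes with one (8.45% higher and 2.73% lower). The alternatives draw on the same 4 libraries and are not independent. With DESeq2 size factors 1332 genes were called and without the 2 IDs with the most counts 1331, beside 1332 in the main fit. Psmc6 kept its call in 8 of 11 alternatives, Psmd2 in 7 of 11, Psma2 in 6 of 11 and Psmb5 in 5 of the 10 that gave an adjusted p. None of these 7 genes changed direction in these alternatives. With 1 library left out, 5, 5, 3 and 6 members were called without control replicates 1 and 2 and 1-nitropyrene replicates 2 and 3, where 9.21%, 8.84%, 6.78% and 9.99% of all genes tested were called. With total-count scaling 1 member was called higher and 10 lower, where 5.31% of all genes were called higher and 14.2% lower.

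**Figure D5:**
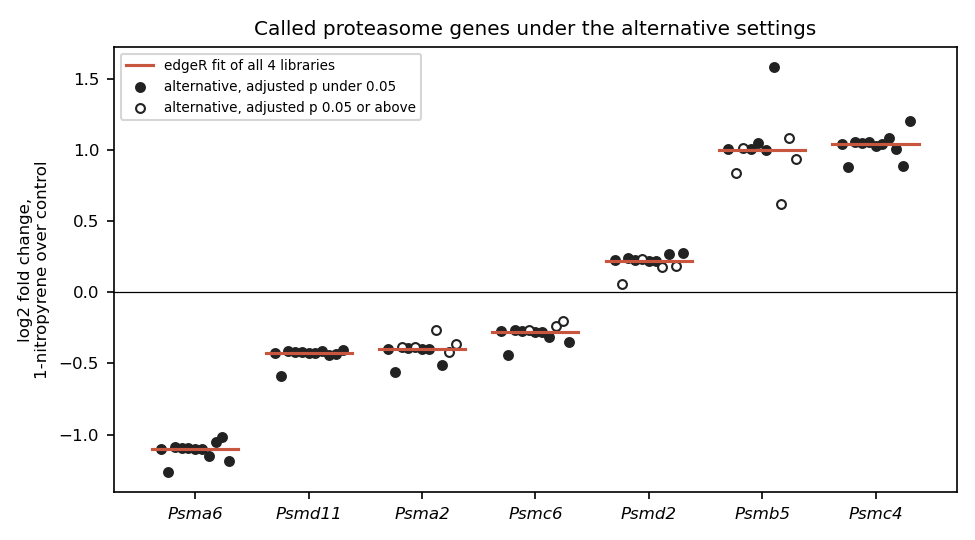
Log2 fold change (1-nitropyrene over control) of the 7 called genes in the edgeR fit of all 4 libraries (red lines) and in each alternative setting (circles, filled where the adjusted p was under 0.05). Psma6, Psmd11 and Psmc4 have filled circles throughout, and the widest range is that of Psmb5, from 0.62 to 1.58.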

How the data were processed

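The authors deposited raw footprint counts per gene for 4 libraries, in 1 table of 53465 Ensembl IDs with 0 lines lacking an ID and 0 other sample columns. The submitters' processing notes name DESeq2, featureCounts, HISAT2, Bowtie and cutadapt and the mm10 build; their versions, the annotation, length selection and strand use are not given in the sources consulted, so counts of overlapping genes and pseudogene copies are uncertain (8 members overlap another RefSeq gene).

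Genes were kept with edgeR's filterByExpr (minimum count 10, minimum total 15), scaled with TMM and compared by the quasi-likelihood F test without covariates (R 4.3.3, edgeR 4.0.16), after the code was tested on simulated data. A first single simulated draw missed the tolerance set for one class of fold, and the test was then changed to pool it with further draws, which met a set tolerance. Standard errors came from the fold change and F, 95% intervals from the test's degrees of freedom. The prior degrees of freedom were infinite, so the spread was the one pooled over genes. Alternatives used DESeq2 1.42.0, limma 3.58.1, other scalings and filters, and each library left out. The chi-square per degree of freedom between replicates was 1.55 and 1.61, so none was taken as a copy. Named genes are all members, with library values for called genes, catalytic subunits and the 2 nearest the threshold, to which Psma7 and Psmd14 were added after their values were seen; members and lists were chosen with earlier results of these data known. The RefSeq table gives an Ensembl ID for 0 of 49997 genes, so related gene lists, cell markers and levels per coding length were not analysed here. With 2 libraries per group, an exact permutation test of a single value cannot go below p = 0.333, so none is given.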

Additional observations from a re-analysis of the deposited data

How the results depend on the processing

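The DESeq2 Wald test called 315 genes in place of 1332, and leaving out 1 library 572 to 834. Members called higher and lower, 3 and 4 in the fit of all libraries, were 1 and 10 with total counts and 1 and 2 with DESeq2. The shares of all genes called higher and lower moved as well. They were 9.68% and 7.58% in the fit of all libraries, 5.31% and 14.2% with total counts, and 8.45% and 2.73% with DESeq2. The members' median was -0.25 with total counts and -0.091 to -0.027 with a library left out; the 20S median was -0.33 with total counts, and the 19S median -0.15, or -0.019 to 0.029 with a library left out. The 20S to 19S log2 ratio of -0.15 was -0.093 without Psma6 and Psmc4, a setting chosen after seeing the data. Whether a median moved was judged against the spread of the libraries' median deviations from gene means, a measure put in place after a first one, the spread of their median levels, was almost 0 for the members and had marked more medians as moved. The cause of these differences was not tested, except that fewer libraries enter the fits that leave one out.

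Of 262 combinations of an uncalled member and an alternative, 238 kept direction and stayed uncalled, 7 became called and 17 changed sign, the last all with an adjusted p of 0.286 or more. With total counts Psma7 was at -0.11, Psmb1 at -0.091, Psmc1 at -0.14, Psmc3 at -0.12, Psmc5 at -0.0073, Psmd1 at -0.15, Psmd12 at -0.029 and Psmd14 at -0.058. Psmd13 was at 0.0056 without a filter and 0.0012 with DESeq2. With a library left out, Psmb1 ran from -0.095 to 0.25, Psmc1 from -0.12 to 0.19, Psmd1 from -0.14 to 0.20, Psmd4 from -0.18 to 0.011, Psmd8 from -0.091 to 0.46 and Psmd13 from -0.019 to 0.0038. No paired analysis was possible because a number common to both groups exists only for replicate 2. The alternatives for related gene lists and for levels per coding length were not run. Depths of 1136145 to 1357034 counts limit the members with few counts, such as Psmb5.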
